A study of Mus musculus with 8 samples.

Results

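The cells described are the conventional dendritic cells of mouse spleen, found in 4 single-cell RNA libraries of total splenocytes. A cell was taken as one when it had more than 100 detected genes, at most 10% mitochondrial unique molecular identifiers (UMIs, each standing for 1 captured transcript), at most 1 UMI of the B cell genes Cd79a and Ms4a1 together, no UMI of Cd3d, Cd3e, Cd3g or Siglech, at least 3 UMIs of Cst3, and a UMI of at least 2 of 7 genes: Flt3, Zbtb46, Clec9a, Xcr1, Itgax, Clec10a and Cd209a. The rule found 295 cells among 42183 filtered total splenocytes, and the whole series held 83704 filtered cells. Since the cells were chosen on measured counts, the levels of the rule genes are given as a description with no test.

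The cKO mice carried Eif3e fl/fl, Cγ1Cre and the Rosa26-YFP LSL reporter, and the controls carried Cγ1Cre and the reporter. Cγ1Cre is a Cre recombinase driven from the immunoglobulin γ1 locus, which is transcribed in activated B cells, so Cre is not directed at dendritic cells. All mice were 2 months old, the cells of 2 to 3 mice were pooled for each library, and each genotype had 2 libraries, which the labels number as batch 1 and batch 2. The sorted YFP+ cells of a further 4 libraries entered only a count. The comparison asks whether conventional dendritic cells differed between cKO and control spleens.

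Conventional dendritic cells take up antigen, carry it to T cell zones and present peptides on MHC molecules together with costimulatory ligands and cytokines. They grow under the cytokine FLT3L, whose receptor is encoded by Flt3, and they carry the transcription factor Zbtb46. In spleen they form the cDC1 lineage, which depends on Irf8 and Batf3, carries the chemokine receptor Xcr1 and the dead-cell receptor Clec9a and is known for cross-presentation to CD8 T cells, and the more varied cDC2 lineage, which uses Irf4 and is known for presentation to CD4 T cells. Both lineages can pass into a mature state marked by Ccr7 and Fscn1.

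The selected cells numbered 83 and 75 in the control libraries and 96 and 41 in the cKO libraries, given here and throughout as batch 1 and batch 2. Each library held 71894780 to 88513929 UMIs, and the median selected cell held 10022 to 12538 UMIs and 3115 to 3604 genes, against 5250 to 6721 UMIs over all cells. A doublet caller marked 1.90% to 2.89% of the cells of a library and 0 of the selected cells. Any pair of total libraries shared 62 to 98 cell barcodes, and 0 selected cells carried a shared barcode. Replicate libraries differed by more than counting noise, with a chi-square of 4.39 to 9.18 per degree of freedom over genes.

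All 6 markers given for the label are among the rule genes, so their presence was fixed by the rule and describes the cells without checking the label. Flt3 was detected in 89.8% of the selected cells, Zbtb46 in 57.6%, Clec9a in 32.2%, Cd209a in 27.8%, Xcr1 in 21.7% and Clec10a in 13.9%. B cells, which should lack these genes, served as the background (at least 3 UMIs of Cd79a and Ms4a1 together, no UMI of Cst3 or the Cd3 genes, median 4451 to 6002 UMIs). Their shares were 5.16% for Flt3, 0.802% for Zbtb46, 0.181% for Cd209a, 0.0864% for Clec9a, 0.055% for Clec10a and 0.0393% for Xcr1. H2-Aa, an MHC class II chain that the rule did not use, had a mean level of 8518 CPM (the UMIs of a gene scaled to a common library total of 1e+06) over the 4 libraries, against 1207 CPM in the 435 other Cst3-positive cells that passed the same gates with fewer than 2 of the 7 genes.

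Many cells stood near the edge of the rule. Of the 295 cells, 101 had exactly 2 of the 7 genes, 96 had 3, 54 had 4, 40 had 5 and 4 had 6. Cells with exactly 2 of the 7 genes carried 5490 to 7863 CPM of H2-Aa per library, and those with 1 of the 7, just outside, carried 837 to 3504 CPM. The monocyte marker Lyz2 stood at 697 and 10434 CPM in control and 1818 and 6391 CPM in cKO cells with exactly 2. In cells with 1 of the 7 it stood at 3178 and 15610 CPM and 2588 and 6357 CPM. The macrophage marker C1qa stood at 29.4 and 22.9 CPM and 368 and 381 CPM with exactly 2, and at 63.9 and 139 CPM and 429 and 1081 CPM with 1. Between 0 and 7 cells per library had exactly 3 UMIs of Cst3, and between 2 and 10 more had 2. Between 17 and 26 cells per library held their 1 allowed UMI of Cd79a or Ms4a1, and 4 to 6 further cells per library held 2.

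Reading the cells with a UMI of Xcr1 or Clec9a apart gave 105 cells (27 and 22 in control, 43 and 13 in cKO), called Xcr1/Clec9a-positive from here on. The other 190 cells (56 and 53 in control, 53 and 28 in cKO) had neither gene. The split rests on detecting 2 genes, so shallow cells of the first kind can fall among the second. Median UMIs were 16740 and 11033.5 in control and 12997 and 15519 in cKO for positive cells, and 10834.5 and 9920 in control and 9059 and 11887.5 in cKO for the rest.

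The Xcr1/Clec9a-positive cells carried the cDC1 programme. All values in the description of the subsets are mean CPM over the 4 libraries, without a test, because the split chose the cells. Of the 18 listed cDC1 genes, 17 were in the files, and 14 were higher in positive cells than in the rest in every library, without overlap. Of the 7168 genes tested for a difference between the subsets, 4.67% lay above in positive cells in this way and 9.0% below, and nothing is read from the list counts beyond the description. Irf8, the cDC1 transcription factor, stood at 1049 CPM in positive cells and 111 CPM in the rest, and Id2, an inhibitor of other lineages, at 839 and 416 CPM. The adhesion molecule Cadm1 stood at 303 and 15.1 CPM. Cd8a, which marks lymphoid-tissue cDC1, stood at 139.8 and 2.495 CPM, and Tlr3, a sensor of double-stranded RNA, at 83.4 and 0.492 CPM. Batf3 stood at 146 and 104 CPM, with overlapping libraries. Cst3, a protease inhibitor and a rule gene, stood at 9517 and 1198 CPM, so the Cst3 threshold lay nearer to the cells without Xcr1 and Clec9a.

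Genes of MHC class I presentation were counted in the same way. Of 16 listed genes, 5 were higher in positive cells in every library, against 4.67% of all genes tested. These 5 included the immunoproteasome subunit Psmb9 (444 against 247 CPM) and the peptide transporter Tap1 (120 against 86.8 CPM). The class II genes were split between the subsets. The peptide-loading chain H2-DMb1 was at 599 CPM in positive cells and 337 CPM in the rest, while its paralog H2-DMb2 was at 143 and 406 CPM. H2-Aa itself overlapped, at 9498 and 7959 CPM. Cxcl9, a chemokine that draws Cxcr3-bearing T cells, stood at 321 CPM in positive cells and 25.9 CPM in the rest.

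The cells without Xcr1 and Clec9a carried cDC2 genes. Of 18 listed cDC2 genes, 12 were higher there than in positive cells in every library, against 9.0% of all genes tested. Irf4 stood at 112 CPM in these cells and 31.8 CPM in positive cells, the inhibitory receptor Sirpa at 285 and 126 CPM, Cd4 at 84.4 and 10.7 CPM, and Dtx1, a target of Notch signalling, at 79.8 and 8.13 CPM. Tbx21, the transcription factor T-bet that marks a share of cDC2, stood at 28.3 and 1.06 CPM. Of 18 genes of NF-kB signalling, 8 were higher in these cells in every library and 0 were lower. Relb stood at 439 and 175 CPM and Nfkb1 at 510 and 282 CPM. The sensor of single-stranded RNA Tlr7 was at 53.0 and 6.58 CPM. Ltb, the membrane anchor of lymphotoxin, was at 286 and 76.2 CPM, and the interleukin receptor Il21r at 83.6 and 26.5 CPM.

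**Figure D1:**
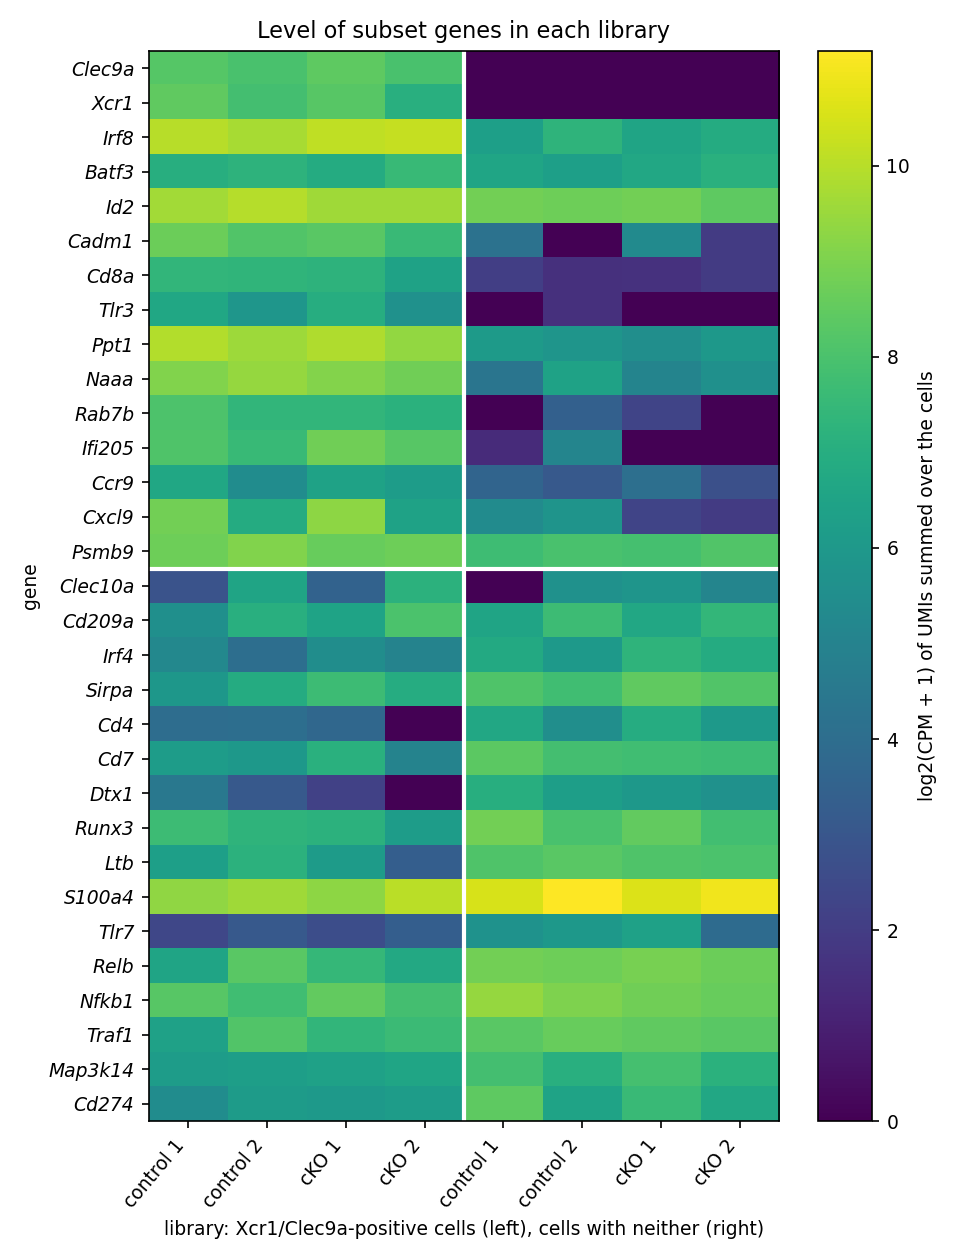
Heat map of log2(CPM + 1) for 31 genes (rows) in the 4 total libraries (columns), with Xcr1/Clec9a-positive cells on the left and cells with neither on the right. Irf8, Cadm1, Tlr3 and Ppt1 are high on the left in every library, and Irf4, Dtx1 and Ltb are high on the right.

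A mature state was present in both subsets. It was read as at least 3 of 8 genes (Ccr7, Fscn1, Cacnb3, Il4i1, Ccl22, Socs2, Nudt17 and Tmem150c) and took in 33 cells, 8 of them Xcr1/Clec9a-positive and 25 not. Ccr7, the receptor that guides cells to T cell zones, was detected in 87.9% of mature cells and 13% of the others, and Fscn1, an actin-bundling protein, in 97.0% and 8.78%. Genes outside those 8 differed as well. Relb stood at 1226 CPM in mature cells and 226 CPM in the others, Apol7c at 1247 and 157 CPM, Tmem123 at 1110 and 87.3 CPM, and the checkpoint ligand Cd274 at 422 and 107 CPM. The activation marker Cd83 stood at 1748 and 802 CPM. H2-Aa was nearly level, at 8323 and 8359 CPM, while March1, a ligase that removes surface MHC class II, was lower, at 83.1 and 293 CPM, as was the loading factor H2-DMa, at 282 and 527 CPM. These too are descriptions of cells chosen on this readout.

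The genotypes were first compared by cell shares, with the library as the replicate. Conventional dendritic cells made up 0.868% (exact binomial 95% interval 0.692 to 1.07) and 0.649% (0.511 to 0.813) of control cells, and 0.916% (0.743 to 1.12) and 0.387% (0.278 to 0.525) of cKO cells. The cKO libraries held both the highest and the lowest share, so the groups overlapped. The difference of the means was -0.106 percentage points (two-sided exact permutation p = 1.0, adjusted 1.0 over 4 shares). Within batch 1 the cKO share was 0.0487 points higher and within batch 2 it was -0.261 points by the same subtraction. With 2 libraries against 2, the smallest p this test can give is 0.333.

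Xcr1/Clec9a-positive cells were 32.5% and 29.3% of the control cells and 44.8% and 31.7% of the cKO cells. The second cKO library lay between the controls, and the exact permutation p was 0.667 (adjusted 0.889). Mature cells were 10.8% and 17.3% of control and 9.38% and 4.88% of cKO dendritic cells, so both cKO libraries lay below both controls. Their mean difference was -6.96 points, from 9 and 13 control cells and 9 and 2 cKO cells, and its exact permutation p of 0.333 (adjusted 0.889) is the smallest this design allows. The libraries overlapped under a strict B cell gate, with at least 10 UMIs of Cst3 and after thinning to 2000 UMIs, where the difference was -0.611 points, and without the second control library it was -3.72 points. Cycling cells, with at least 3 of 10 division genes such as Mki67 and Top2a, were 10.8% and 0% of control and 6.25% and 12.2% of cKO dendritic cells (exact permutation p = 0.667, adjusted 0.889). The count of 0 among 75 cells allows a share of up to 4.0% by the limit of 3 counts and 4.80% by the exact 95% interval. Of the 5 cycling cells of the second cKO library, 2 were cells with endothelial genes that are described with Plvap. Without such cells its share was 7.69% and the mean difference was 1.62 points in place of 3.801. All intervals cover counting error only.

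**Figure D2:**
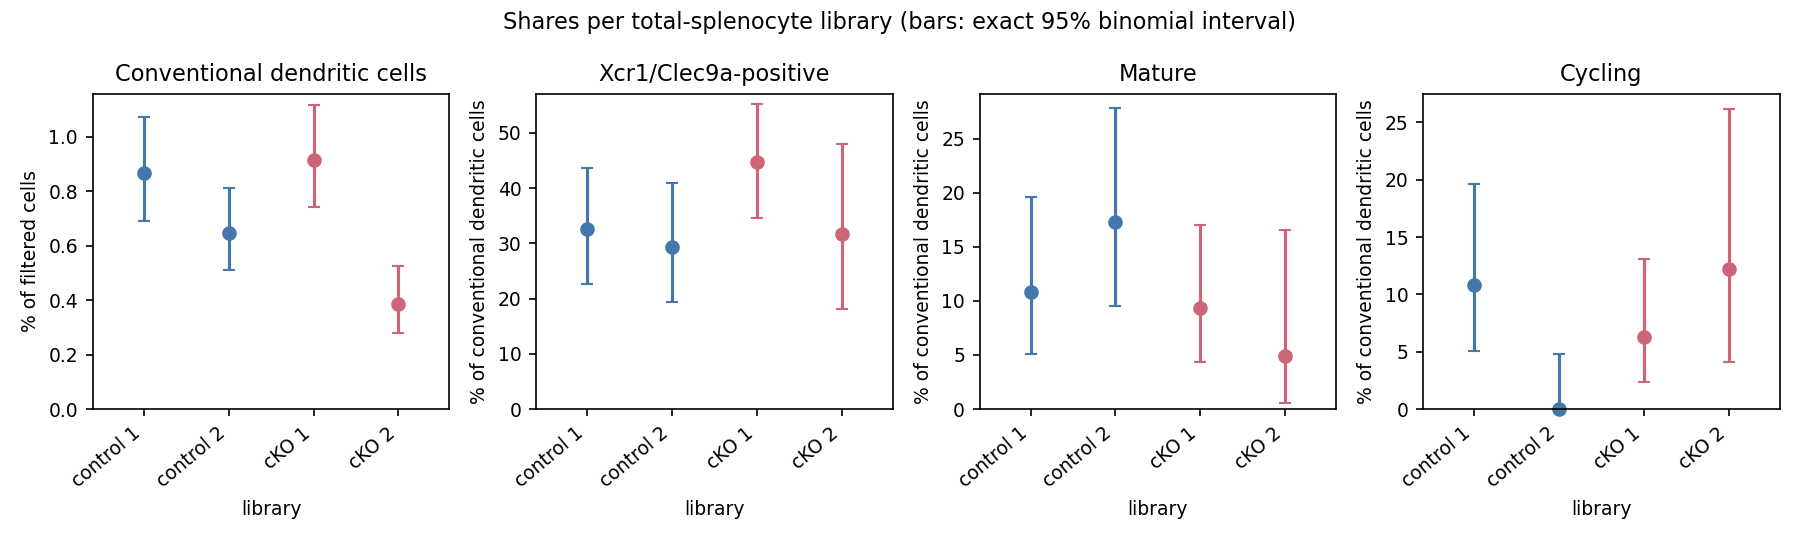
Share of conventional dendritic cells among all cells, and shares of Xcr1/Clec9a-positive, mature and cycling cells among them, in percent (vertical axes) for each total library, with exact 95% binomial intervals. The groups overlap in every panel but that of mature cells, where the cKO points at 9.38% and 4.88% lie below the controls at 10.8% and 17.3%.

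Shares read at equal depth were different in size. After every cell was thinned to 2000 UMIs, leaving out 136 to 260 shallower cells per library (0 to 2 of them dendritic), the rule found 0.204% and 0.220% of control and 0.352% and 0.124% of cKO cells. Xcr1/Clec9a-positive cells were then 84.2% and 20% of the control and 63.9% and 30.8% of the cKO dendritic cells. Thinning thus moved the division by these 2 genes, up in both libraries of batch 1 and down in both libraries of batch 2. The whole rule was applied again, so the selected cells changed as well. Before thinning, the median Cst3 per positive cell was 140 and 22.5 UMIs in control and 76 and 48 UMIs in cKO. The part of Cst3 was not tested. No order between the genotypes was read from this division.

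Eif3e itself, the floxed gene, was level in dendritic cells. Its TMM-scaled level (CPM after trimmed-mean scaling of the summed cells, used for the tests that follow and most levels beside them) was 208 and 246 CPM in control and 227 and 254 CPM in cKO. The log2 fold change of cKO over control was 0.08 ± 0.309 (SE) with an adjusted p of 1 by edgeR's quasi-likelihood test. It was -0.02 in Xcr1/Clec9a-positive cells and 0.16 in the rest. Reads from the 3′ end can lie outside the deleted exons, so the value does not check the deletion. The 13 of 14 eIF3 subunit genes that were tested had a median log2 fold change of 0.06 over all dendritic cells, and none was called. Throughout, edgeR's fold change is shrunken by a prior count of 2, while the SE is that of the fold change without this shrinkage. For genes with few UMIs the SE is therefore not that of the printed fold change. Levels given without TMM scaling include those after marked cells were left out and summed levels of a gene list.

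Counts were summed per library and compared by edgeR's quasi-likelihood test, adjusted over all genes tested. Over all conventional dendritic cells 1 of 8219 genes was called at an adjusted p under 0.05, or 0.0122%, while 208 had an unadjusted p under 0.05. Among Xcr1/Clec9a-positive cells it was 1 of 5139 (0.0195%, with 116 at an unadjusted p under 0.05), and among the rest 0 of 6475 (0.0%, with 129). DESeq2 called 2, 2 and 4 genes. On simulated counts with 4-fold changes the same test recovered 92.0% of changed genes among 7888 for all dendritic cells. It recovered 88.2% among 4772 for positive cells and 90.5% among 6174 for the rest, with 11, 18 and 9 false calls. The simulation gave every gene the same fixed spread, not taken from these libraries, and changed only genes with a mean of at least 20 counts. Neither these recoveries nor those given further on therefore measure the power of the tests on the real counts. With batch as a term, Igfbp7 was the 1 called gene both over all dendritic cells and in the rest, and Plvap was not called. The median log2 fold change of all tested genes lay near 0, at -0.01 over all dendritic cells.

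Both called genes are genes of blood vessel endothelium. Plvap, which forms the diaphragms of fenestrated endothelium, was the called gene over all dendritic cells. Its levels were 0.938 and 0 CPM in control and 64.5 and 56.1 CPM in cKO libraries (a log2 fold change of 4.45 ± 0.726, with adjusted p = 0.00336, edgeR). Igfbp7, a secreted protein abundant in vessels, was the called gene in Xcr1/Clec9a-positive cells, at 2.28 and 4.45 CPM in control and 228 and 176 CPM in cKO libraries (a log2 fold change of 4.59 ± 0.65, with adjusted p = 1.3e-05, edgeR). Both cKO libraries stood far above both controls for each gene.

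These UMIs sat in very few cells. A list of 13 endothelial genes, chosen after the values were seen (Cdh5, Plvap, Ptprb, Tm4sf1, Stab2, Ramp2, Cldn5, Kdr, Emcn, Egfl7, Tie1, Igfbp7 and Sparc), was counted in each of the 295 cells. There were 4 cells with 11 or 12 of them, 2 in each cKO library, while 0 of the other 291 had more than 2. These 4 cells held all 101 cKO UMIs of Plvap, against 1 and 0 UMIs in the controls. In Xcr1/Clec9a-positive cells Igfbp7 had 1 and 1 UMIs in the controls and 125 and 38 in the cKO libraries, of which 124 and 38 lay in single cells. The 4 cells held 7082, 8949, 34178 and 39090 UMIs, 10, 3, 36 and 362 UMIs of Cst3, and 3, 2, 4 and 5 of the 7 rule genes. In the same order they held 3, 1, 74 and 92 UMIs of H2-Aa and 10, 2, 115 and 132 UMIs of Cd74, which the rule did not use. The 2 cells of the first cKO library thus held little of either class II gene. Without them 0 genes were called over all dendritic cells (172 at an unadjusted p under 0.05) or in positive cells. Whether the 4 cells are dendritic cells, endothelial cells or pairs of cells in 1 droplet was not tested. The doublet caller had marked none of them.

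**Figure D3:**
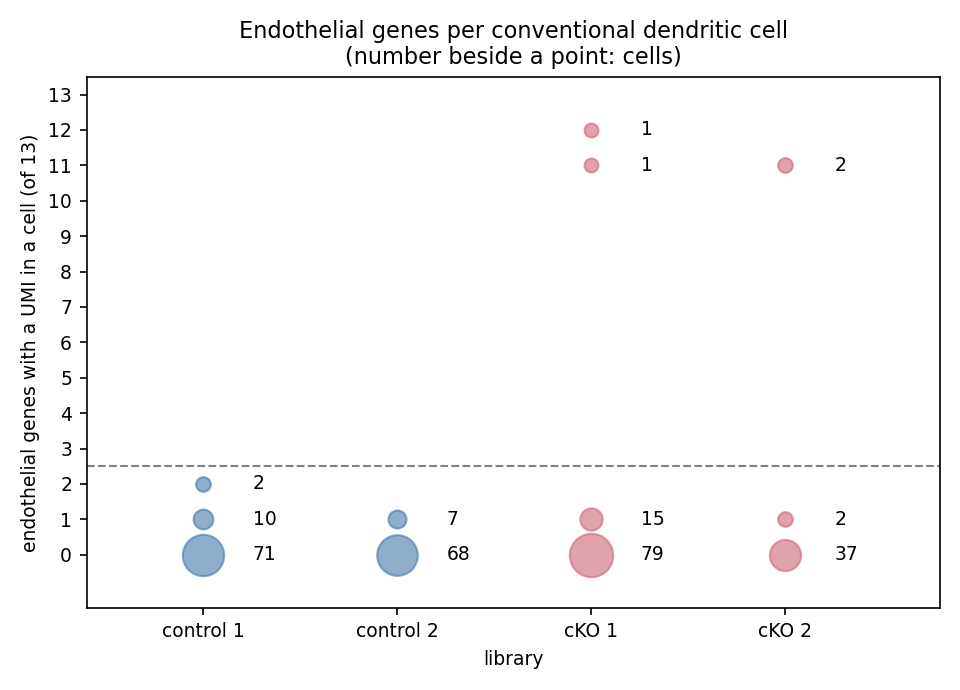
Number of the 13 endothelial genes with at least 1 UMI (vertical axis) in each of the 295 conventional dendritic cells, by library (horizontal axis). The number of cells is printed beside each point. The 4 cells at 11 and 12 genes are all from cKO libraries, and every other cell has 0, 1 or 2.

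Among Xcr1/Clec9a-positive cells the genes nearest to the threshold included 3 interferon-induced genes that were higher in cKO. Type I interferon acts through a transcription factor complex that contains Irf9 and binds interferon-stimulated response elements in promoters. Bst2, which tethers budding virus at the cell surface, stood at 93.6 and 116 CPM in control and 304 and 436 CPM in cKO libraries (a log2 fold change of 1.77 ± 0.385, with adjusted p = 0.0894, edgeR). It was detected in 17 of 27 and 14 of 22 control cells, and in 31 of 43 and 13 of 13 cKO cells. Irf7, the factor that amplifies interferon production, stood at 27.4 and 35.6 CPM in control and 107 and 149 CPM in cKO (1.85 ± 0.463, adjusted p = 0.133). Ifi207, a member of the interferon-inducible DNA-sensor family, stood at 43.4 and 35.6 CPM in control and 133 and 172 CPM in cKO (1.77 ± 0.432, adjusted p = 0.133). For each of the 3, both cKO libraries lay above both controls and in both batches.

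The labels' batch number pairs a control with a cKO library. With batch as a term, edgeR called 11 genes among positive cells (0.214%), all 3 of these among them: Bst2 (log2 fold change 1.75, adjusted p = 0.00558), Irf7 (1.83, adjusted p = 0.0416) and Ifi207 (1.75, adjusted p = 0.047). The other higher genes were Igfbp7, Sparc, Slc40a1, Hist1h4d, Ly6c2 and Ms4a6c. These calls include the cells with endothelial genes, which held 162 of the 163 cKO UMIs of Igfbp7, 40 of the 42 of Sparc and 72 of the 151 of Hist1h4d, and also 36 of the 261 of Bst2 and 5 of the 91 of Irf7. The monocyte surface gene Ly6c2 stood at 11.4 and 13.4 CPM in control and 76.5 and 297 CPM in cKO, and its adjusted p was 0.133 without the batch term and 0.000854 with it. DESeq2 called it without a batch term (adjusted p = 0.00764). With any 1 library left out its log2 fold change lay between 2.25 and 3.98. Ly6c2 also came from few cells: 5 and 3 UMIs in 2 and 3 control cells, and 42 and 64 UMIs in 7 and 5 cKO cells. Single cKO cells held 16 and 33 of these. Ly6c2 is itself among the 13 markers of other myeloid or NK cells. Without cells with at least 2 of these and those with endothelial genes, edgeR did not call it in positive cells. That step left 23 and 2 cKO positive cells. The log2 fold change was then 4.41, from 1 and 0 control UMIs and 17 and 21 cKO UMIs. Over all dendritic cells left by the same step, edgeR called Ly6c2 (3.43, adjusted p = 0.0427). Dcstamp, a fusion protein of myeloid cells, and Il12b were lower. Il12b, the shared subunit of interleukins 12 and 23, stood at 86.8 and 97.9 CPM in control and 14.6 and 4.64 CPM in cKO (-2.54 ± 0.588, adjusted p = 0.0752 without batch and 0.0223 with it). It came from few cells: 38 and 22 UMIs in 3 and 3 control cells, and 8 and 1 UMIs in 4 and 1 cKO cells.

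The wider list of type I interferon genes leaned the same way in these cells. Of 39 listed genes, 17 were tested in Xcr1/Clec9a-positive cells, 14 of them had a higher mean in cKO, and in 12 both cKO libraries lay above both controls, against 13.1% of all genes tested that did so. The median log2 fold change was 0.78. Over the rest of the dendritic cells 26 were tested, 16 were higher, 4 stood above without overlap (12.9% of all genes did), and the median was 0.12. With all 4 libraries, no list member was called in either subset by the test without the batch term. With no filter on low counts the list members Bst2 and Irf7 were called in positive cells, as was Ifi207, which is not on the list. With any 1 library left out the log2 fold change of Bst2 in positive cells lay between 1.51 and 1.99. The difference between the subsets was tested across 7168 genes and called 0 (0.0%, 299 at an unadjusted p under 0.05, DESeq2 0), so the lean is not shown to differ between them. On simulated counts this test recovered 54.5% of 4-fold changes among 6722 genes.

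Monocyte markers moved with these genes. Their summed level in Xcr1/Clec9a-positive cells was 1992 and 2173 CPM in control and 2817 and 4692 CPM in cKO, 8 of 9 tested markers had a higher mean in cKO, and the median log2 fold change was 0.89. Lyz2 stood at 555 and 806 CPM in control and 899 and 1629 CPM in cKO, and Cd14 at 9.14 and 8.90 CPM and 47.3 and 41.8 CPM. Markers of plasmacytoid dendritic cells, which also carry Bst2 and Irf7, summed to 411 and 294 CPM in control and 843 and 743 CPM in cKO positive cells, Bst2 included. Among them Siglech was at 0 by the rule, and Cox6a2 and Klk1b27 were at 0 as well. Red pulp macrophage markers summed to 589.7 and 341 CPM in control and 1377 and 607 CPM in cKO positive cells, with 9 of 9 tested higher in cKO and a median of 0.83. Cells with at least 2 of 13 markers of other myeloid or NK cells were 59.3% and 27.3% of control and 44.2% and 76.9% of cKO positive cells. Leaving such cells out left 11 and 16 control and 24 and 3 cKO positive cells. In these Bst2 stood at 136 and 81.5 CPM in control and 367 and 727 CPM in cKO (2.08, adjusted p = 0.764, edgeR), the last value from 44 UMIs in 3 cells, or 27 UMIs without the cell with endothelial genes, and Irf7 and Ifi207 had log2 fold changes of 1.71 and 1.06 (adjusted p = 0.999 for each, edgeR). In the rest the fold change of Bst2 was then 0.12. Over all dendritic cells left by that step, Bst2 stood at 81.2 and 94.7 CPM in control and 236 and 258 CPM in cKO libraries (a log2 fold change of 1.38, with adjusted p = 0.197, edgeR), and Irf7 at 19.3 and 52.6 CPM and 61.4 and 127 CPM (adjusted p = 1, edgeR), while Ifi207 had a log2 fold change of 0.88 (adjusted p = 1, edgeR). The part of these markers in the difference was otherwise not tested.

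Promoter sequences of Bst2 and of the chemokine gene Cxcl10 are printed because these 2 interferon-induced genes leaned in opposite directions, in different subsets. They come from RefSeq on GRCm38.p6, run from 250 bases before to 50 bases after the start of the gene, and are written 5′ to 3′ on the strand of the gene. Capitals mark GAAA followed by any 2 bases and a further GAAA, a core of the interferon-stimulated response element, searched on both strands. The Bst2 window is chr8:71537423-71537722 on the minus strand and the Cxcl10 window chr5:92348840-92349139 on the minus strand.
Bst2: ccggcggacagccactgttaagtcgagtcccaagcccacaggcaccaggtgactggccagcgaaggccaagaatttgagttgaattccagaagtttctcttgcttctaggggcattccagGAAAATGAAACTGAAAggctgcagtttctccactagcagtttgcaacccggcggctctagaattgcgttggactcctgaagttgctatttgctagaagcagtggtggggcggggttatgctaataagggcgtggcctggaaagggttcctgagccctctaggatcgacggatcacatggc
Cxcl10: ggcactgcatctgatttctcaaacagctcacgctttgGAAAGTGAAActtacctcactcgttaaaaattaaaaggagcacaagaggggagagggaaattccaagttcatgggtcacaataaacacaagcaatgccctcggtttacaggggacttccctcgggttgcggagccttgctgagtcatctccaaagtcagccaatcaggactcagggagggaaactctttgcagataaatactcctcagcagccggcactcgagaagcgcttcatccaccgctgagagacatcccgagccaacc
Bst2 held 2 overlapping matches, the first starting 130 bases before the start site, and Cxcl10 held 1, starting 213 bases before it. Ifi207 and Gbp2 held 1 match each, and Irf7 and Cxcl9 had none in this window. The pattern was present in 3.44% of all 32851 listed promoters. Counted per gene it was in 1079 of 27025 genes (3.99%) and in 26 of the 45 interferon list genes that had a promoter listed (57.8%). A match is a description of the letters only.

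In the cells without Xcr1 and Clec9a no gene was called, and the lowest p-values belonged to Cd69, which was lower in cKO, and C1qa, which was higher and is described further on. Cd69, a membrane protein induced early in activation that holds back exit from lymphoid tissue, stood at 162 and 79.4 CPM in control and 4.11 and 12 CPM in cKO libraries (a log2 fold change of -3.42 ± 0.617, with adjusted p = 0.0986, edgeR). It gave 97 and 38 UMIs in 13 and 18 control cells and 2 and 4 UMIs in 2 and 4 cKO cells, and 1 control cell held 67 of the 97. B cells in the same libraries carried 290.1 and 357 CPM of Cd69 in control and 395 and 495 CPM in cKO, so their level stood in the opposite order.

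Among genes lower in cKO, the chemokine genes Cxcl9 and Cxcl10, both induced by interferon-γ, had the next lowest p-values. Cxcl9 stood at 43.3 and 58.5 CPM in control and 4.11 and 3.00 CPM in cKO (-2.80 ± 0.663, adjusted p = 0.188, edgeR), from 2 and 4 control cells and 1 and 1 cKO cells. Cxcl10 stood at 65.0 and 190.1 CPM in control and 6.17 and 0 CPM in cKO (adjusted p = 0.26, edgeR). Its 39 and 91 control UMIs lay in 3 and 7 cells, with 17 and 38 of them in single cells. Its 3 and 0 cKO UMIs lay in 2 and 0 cells. Both control libraries lay above both cKO libraries for Cxcl9 and for Cxcl10. In Xcr1/Clec9a-positive cells Cxcl9 overlapped, at 484 and 134 CPM in control and 659 and 88.2 CPM in cKO. Of the 12 tested type II interferon genes, 10 had a lower mean in cKO in the cells without Xcr1 and Clec9a and 4 lay below without overlap (11.8% of all genes did), with a median of -0.26. In positive cells 8 were tested and the median was 0.08.

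The calls for these genes turned on the processing. With any 1 library left out, the log2 fold change of Cd69 lay between -3.98 and -2.80. That of Cxcl10 lay between -4.95 and -3.16, and that of Cxcl9 between -2.94 and -2.60. DESeq2 called Cd69 (adjusted p = 0.00506) and Cxcl10 (adjusted p = 0.00506), and at least 20 counts in 2 libraries as the filter called Cd69 (adjusted p = 0.0461). Leaving out the cells with at least 2 of 13 other myeloid or NK markers left 32 and 32 control and 30 and 14 cKO cells without Xcr1 and Clec9a. There edgeR called 14 of 4824 genes (0.29%), among them Cd69 (-3.77, adjusted p = 3.42e-09), Cxcl10 (-4.02, adjusted p = 9.3e-10), Cxcl9 (-2.93, adjusted p = 0.000191) and the guanylate-binding protein Gbp2 (-2.36, adjusted p = 0.0162). These calls rest on few cells. Cxcl10 had 39 and 72 control UMIs and 2 and 0 cKO UMIs there, from at most 7 cells per library. Cd69 had 86 and 32 control UMIs and 2 and 1 cKO UMIs, and the control cell with 67 UMIs was still included. Over all dendritic cells left by the same step, 9 of 6334 genes were called (0.142%), Cd69 among them.

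Genes of cell division were among those higher in cKO in that reduced set. Stmn1, a regulator of microtubules, stood at 132 and 51.5 CPM in control and 309.5 and 449 CPM in cKO (1.93, adjusted p = 0.00248, edgeR), and Top2a, Pclaf, Hist1h1b, Kif11 and Nusap1 were also called. In the full set of these cells neither edgeR nor DESeq2 called one. All 19 of the 22 listed cell cycle genes that were tested in cells without Xcr1 and Clec9a had a higher mean in cKO, 16 lay above without overlap, against 12.9% of all genes tested, and the median log2 fold change was 1.27. A single cell of the second cKO library among them, with 34178 UMIs and 11 endothelial genes, carried 8 of the 10 division genes. Counted as cells with at least 3 division genes, 6 of 56 and 0 of 53 control cells of this subset were cycling. In cKO it was 3 of 53 and 3 of 28, so the cell counts of the genotypes overlapped. Tpx2, a spindle assembly factor, stood at 33.3 and 12.5 CPM in control and 61.7 and 90.0 CPM in cKO, and Hmgb2 at 492 and 290.3 CPM and 592 and 855 CPM. In positive cells 7 of 10 had a higher mean and the median was 0.24. The second control library, which had 0 cycling cells, was the lower control for both genes.

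C1qa, a chain of complement C1q made by macrophages, was the gene with the lowest p among those higher in cKO in the cells without Xcr1 and Clec9a. It stood at 35.0 and 10.4 CPM in control and 222 and 228 CPM in cKO (3.06 ± 0.508, adjusted p = 0.0986, edgeR). DESeq2 called it (adjusted p = 0.000365), as well as C1qc (adjusted p = 0.00506), and edgeR called C1qa with at least 20 counts in 2 libraries (adjusted p = 0.0461). Single cells held 66 of its 108 UMIs in the first cKO library and 71 of its 76 UMIs in the second. All 11 tested of 13 red pulp macrophage markers had a higher mean in cKO over all dendritic cells, with a median of 1.61 and a summed level of 551 and 295 CPM in control and 1703 and 858 CPM in cKO. Cells with at least 2 of the 3 C1q genes were 21.7% and 4.0% of control and 20.8% and 24.4% of cKO dendritic cells. The second control library was thus the one that stood apart. Whether such cells are dendritic cells with macrophage genes or macrophages with 2 rule genes was not tested.

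**Figure D4:**
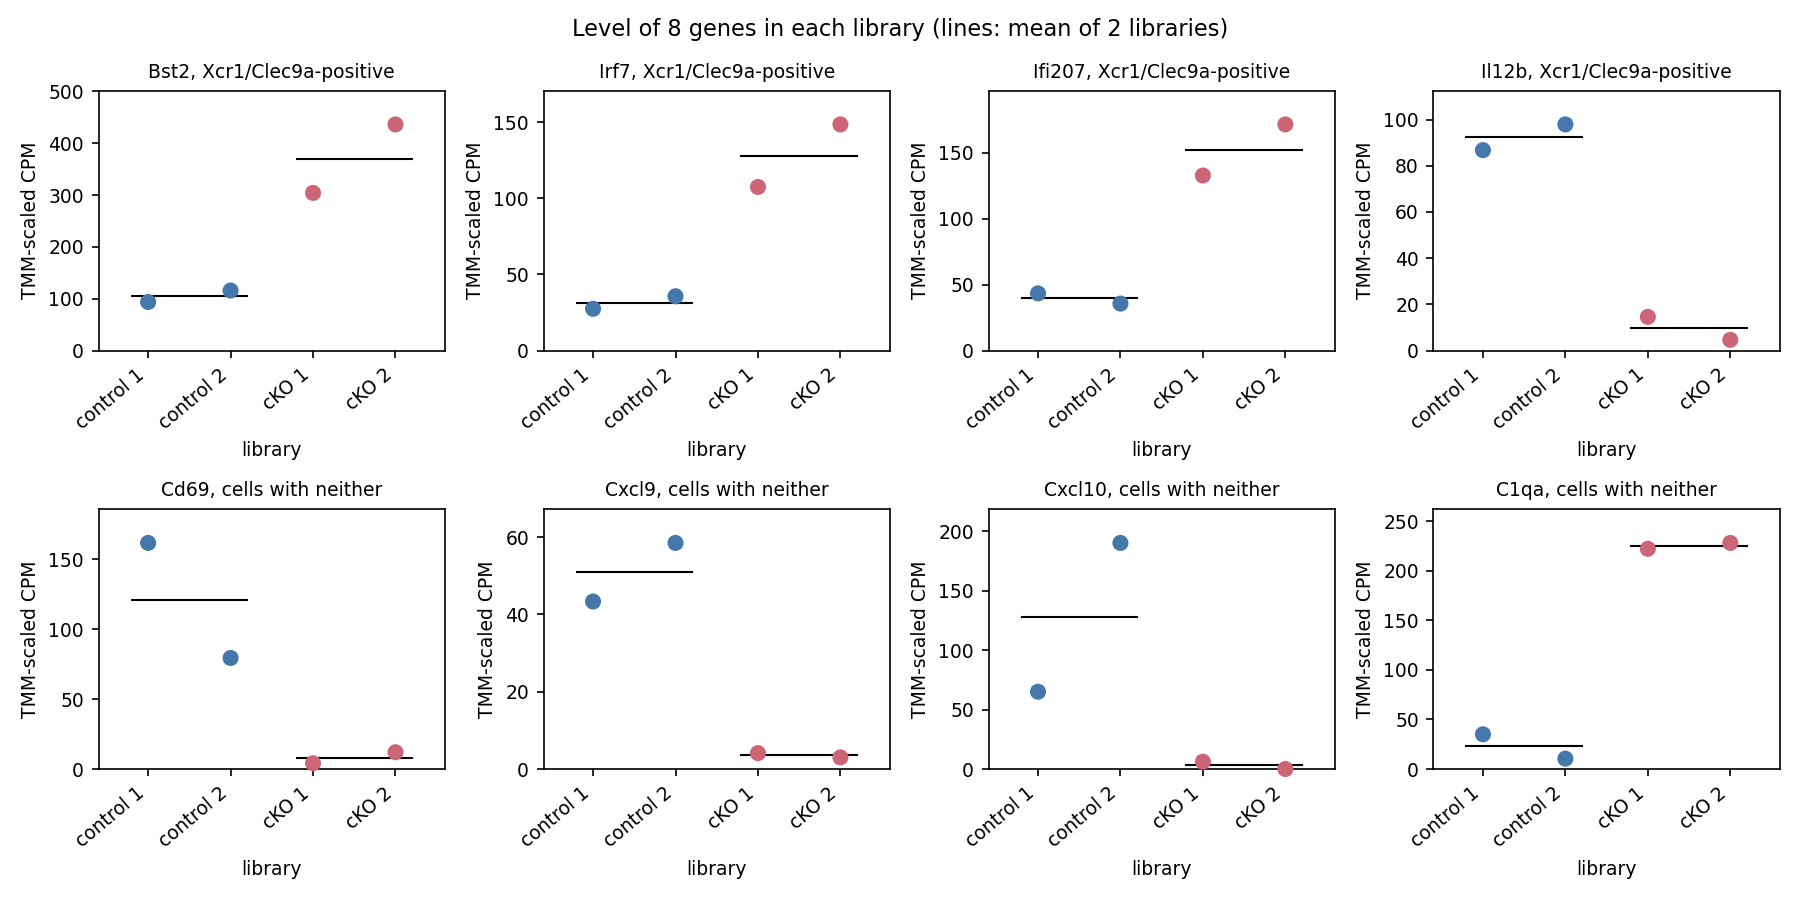
TMM-scaled CPM (vertical axes) of Bst2, Irf7, Ifi207 and Il12b in Xcr1/Clec9a-positive cells and of Cd69, Cxcl9, Cxcl10 and C1qa in cells with neither, one point per library and a line at the mean of each genotype. In all 8 panels the 2 cKO points lie on one side of the 2 control points.

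No gene of antigen presentation was called with all 4 libraries. All 14 MHC class II list genes were tested over all dendritic cells, and their median log2 fold change was -0.04. In Xcr1/Clec9a-positive cells 13 were tested, 10 had a lower mean in cKO, 4 lay below without overlap (14.1% of all genes did), and the median was -0.29. Without the first control library, Cd74 (adjusted p = 0.000415), H2-Eb1 (adjusted p = 0.00557) and H2-Aa (adjusted p = 0.0198) were called as lower in cKO positive cells by edgeR, with log2 fold changes of -0.61, -0.71 and -0.58. H2-Aa stood at 7616 and 9767 CPM in control and 8223 and 9258 CPM in cKO (0.01 ± 0.205), and its chaperone Cd74 at 13522 and 16664 CPM and 13994 and 14065 CPM (-0.11 ± 0.186). The 16 MHC class I genes had a median of -0.05. The costimulatory ligand Cd86 stood at 777 and 474 CPM in control and 932 and 426 CPM in cKO, and the 12 of 16 costimulation and checkpoint genes tested had a median of -0.14. At the levels given, the genotypes overlapped for H2-Aa, Cd74 and Cd86. For H2-Aa and Cd74 both cKO libraries lay between the controls, and for Cd86 both controls lay between the cKO libraries.

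Genes of the mature programme were counted next. Of 15 tested, 11 had a lower mean and 9 lay below without overlap over all dendritic cells, against 13% of all genes, and the median was -0.43. Fscn1 stood at 82.5 and 194 CPM in control and 67.3 and 33.3 CPM in cKO (-1.36 ± 0.474, adjusted p = 1, edgeR), and Ccr7 at 136 and 237 CPM and 127 and 98.2 CPM (-0.70 ± 0.352, adjusted p = 1, edgeR). None was called, and leaving out 1 library at a time put the fold change of Fscn1 between -1.97 and -0.65, with a call without the first cKO library, without the first control library (adjusted p = 0.0079, edgeR) and with no filter on low counts. In positive cells 1 of 9 lay below without overlap (14.1% of all genes did), and the summed levels overlapped, at 747 and 2495 CPM in control and 1415 and 598 CPM in cKO. In the rest 5 of 13 lay below without overlap (11.8% of all genes did), with a median of -0.29. Summed levels there overlapped too, at 2611 and 2108 CPM in control and 2138 and 2117 CPM in cKO. In summed cells, fewer cells of a state and less RNA per cell cannot be told apart. NF-kB genes had a median of -0.17 over 17 tested, with 6 below without overlap.

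No lineage gene was called. In Xcr1/Clec9a-positive cells 15 cDC1 genes were tested, with a median of -0.10, 3 above and 5 below without overlap, against 13.1% above and 14.1% below for all genes tested. Irf8 stood at 1108 and 984 CPM in control and 1162 and 1225 CPM in cKO (0.19 ± 0.273). In the other cells 17 cDC2 genes were tested, with a median of -0.15, 4 above and 4 below without overlap, against 12.9% above and 11.8% below for all genes tested. There Tbx21 stood at 61.7 and 25.1 CPM in control and 16.4 and 15 CPM in cKO (-1.27 ± 0.577, adjusted p = 1, edgeR), and Dtx1 at 135 and 81.5 CPM and 63.7 and 54.0 CPM (-0.83 ± 0.404, adjusted p = 1, edgeR). Both cKO libraries lay below both controls for each of the 2 genes.

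The remaining lists were without a called member over all dendritic cells. Their median log2 fold changes were -0.35 for 10 cytokine genes, -0.22 for 8 chemokine genes, -0.20 for 4 genes of B cell help, 0.03 for 14 genes of positioning and migration, -0.06 for 17 growth and survival genes and 0.08 for 15 genes of the IL-4 and STAT6 response. They were 0.05 for 18 genes of pattern recognition, 0.04 for 18 endocytic receptors and -0.10 for 25 immediate early and stress genes. Ccl5, which recruits T cells, stood at 386 and 1109 CPM in control and 382 and 174 CPM in cKO (-1.41 ± 0.57, adjusted p = 1, edgeR), with 230 of the 811 UMIs of the second control library in 1 cell. Leaving out 1 library at a time put it between -2.10 and -0.46, and it was called in 3 of 17 alternatives (without the first cKO library, without the first control library and with no filter on low counts, lowest adjusted p = 0.000138, edgeR). Ccl3 stood at 71.3 and 180.5 CPM in control and 57.0 and 45.6 CPM in cKO (-1.23 ± 0.436, adjusted p = 1, edgeR), and between -1.75 and -0.44 with 1 library left out, with a call without the first control library (adjusted p = 0.0168, edgeR). Myc stood at 30 and 20.5 CPM in control and 5.61 and 7.01 CPM in cKO (-1.72 ± 0.55, adjusted p = 0.753, edgeR). Over all dendritic cells 12.8% of all genes tested lay above without overlap in cKO.

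**Figure D5:**
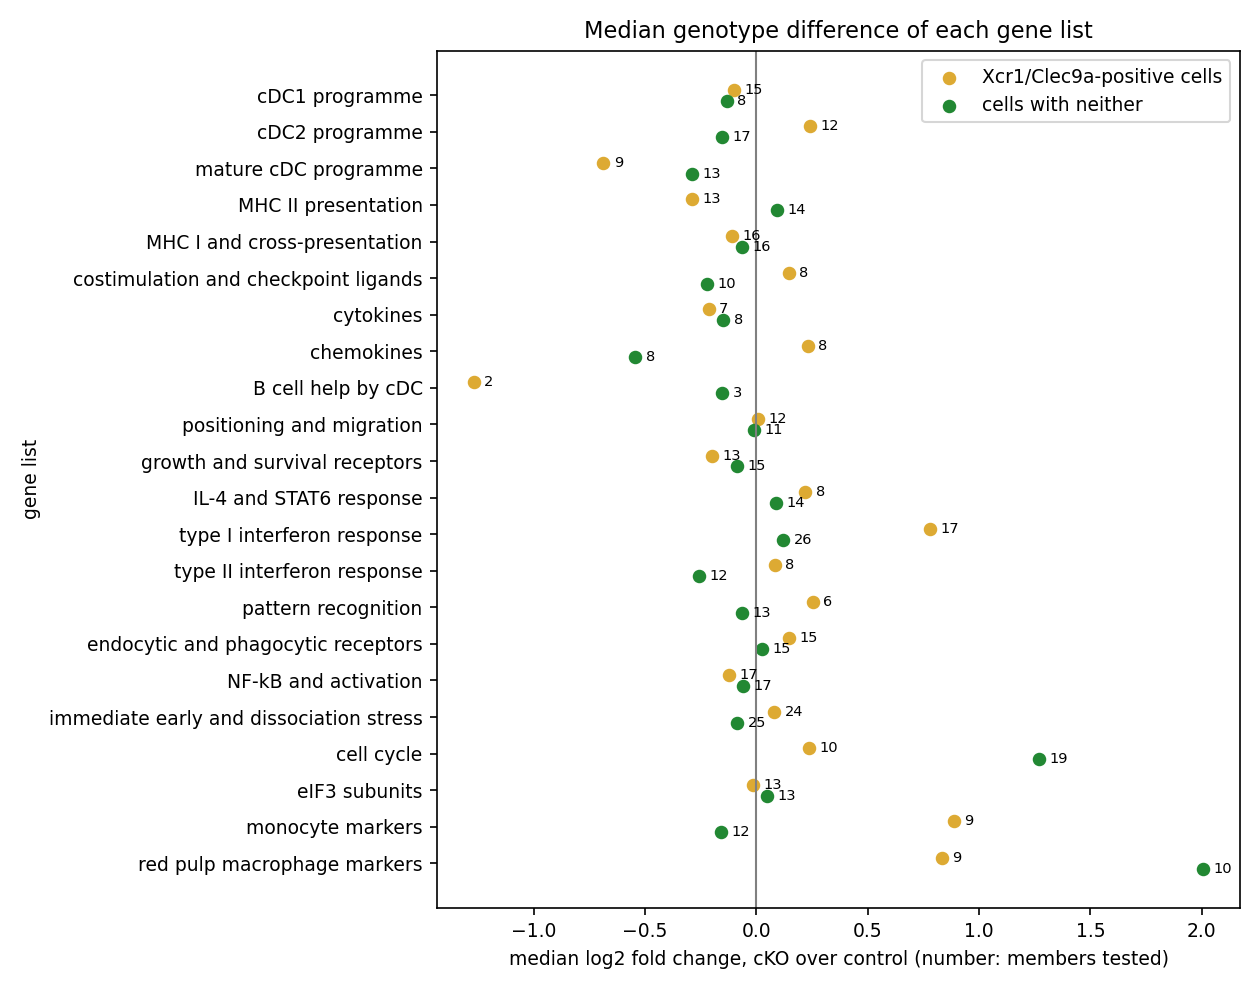
Median log2 fold change of cKO over control (horizontal axis) for each gene list (rows), in Xcr1/Clec9a-positive cells and in cells with neither, with the number of members tested printed beside each point. The type I interferon list stands at 0.78 in positive cells and 0.12 in the rest, and the cell cycle list at 0.24 and 1.27.

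The genotype difference in dendritic cells was then set against that in other cells of the same libraries. Against the 12724 B cells, 174 of 13228 genes differed in their genotype effect (1.32%, edgeR, with 33 by DESeq2), 82 with a higher and 92 with a lower fold change in dendritic cells. The simulated recovery of 4-fold changes was 41.5% among 12862 genes. On CPM without TMM scaling the split was 113 higher and 77 lower. Several of the named genes with a lower one stood far higher in cKO than in control B cells. Slpi, a secreted protease inhibitor, stood at 2.13 and 1.73 CPM in control and 118 and 74.5 CPM in cKO B cells, and at 42.6 and 35.0 CPM and 138 and 49.3 CPM in dendritic cells (difference of log2 fold changes -4.26 ± 0.344, adjusted p = 1.85e-33, edgeR). The cytokine receptor gene Lifr stood at 6.32 and 3.91 CPM and 172 and 139.6 CPM in B cells, and at 7.24 and 10.4 CPM and 36.0 and 27.9 CPM in dendritic cells (-2.97 ± 0.513, adjusted p = 3.17e-06, edgeR). Nfil3, a transcription factor that cDC1 development also needs, stood at 2.63 and 1.41 CPM and 41.2 and 84.8 CPM in B cells and at 16.3 and 28.5 CPM and 44.1 and 60.8 CPM in dendritic cells (-3.47 ± 0.419, adjusted p = 1.99e-14, edgeR).

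Both Lifr and Nfil3 lay higher in the cKO dendritic cells of both batches too, without being called within them (log2 fold changes 1.68 and 1.17, adjusted p = 0.596 and 1, edgeR). Ighm, an immunoglobulin gene of B cells, stood at 168 and 151 CPM in cKO dendritic cells and 2355 and 2486 CPM in cKO B cells, and Lifr at 37.1 and 29.4 CPM against 165 and 132 CPM on the same unscaled CPM. The source of either in dendritic cells was not tested. Of the 14 genes reported changed in cKO naive B-like cells, which are a list drawn from these same libraries, 7 were tested in dendritic cells and 6 had a higher mean in cKO, with a median of 0.37.

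Cd69, Fscn1 and Samsn1 differed from B cells with lower values in cKO dendritic cells. Samsn1, an adaptor that restrains B cell activation, stood at 393 and 405 CPM in control and 308 and 256 CPM in cKO dendritic cells, and at 148 and 145 CPM and 581 and 731 CPM in B cells (-2.63 ± 0.203, adjusted p = 1.96e-34, edgeR). The 10 named genes with a higher fold change in dendritic cells were Igfbp7, Tm4sf1, Hspg2, Mgll, Plvap, Star, Sparc, Ly6c1, Plpp3 and Nid1, of which Igfbp7, Tm4sf1, Plvap and Sparc are among the 13 endothelial genes counted above. Without the 4 cells described above the value of Igfbp7 was -0.64, that of Sparc -0.69 and that of Nid1 -1.56. Hspg2 (4.08), Mgll (4.48) and Star (3.48) then kept their direction without being called, and Plpp3 (3.90) was still called.

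Against the 435 other Cst3-positive cells, 4 of 8724 genes differed in their genotype effect (0.0459%, edgeR, with 9 by DESeq2), all with a lower fold change in dendritic cells, and the simulated recovery was 59.5% among 8299 genes. Rgs1, a regulator of chemokine receptor signalling, stood at 398 and 569.6 CPM in control and 321 and 295 CPM in cKO dendritic cells, and at 107 and 178 CPM and 427 and 383 CPM in the other cells (-2.16 ± 0.236, adjusted p = 0.0112, edgeR). H2-Aa was level in dendritic cells and stood at 657 and 900.1 CPM in control and 1773 and 1544 CPM in cKO in the other cells (-1.10 ± 0.144, adjusted p = 0.039, edgeR). The difference lay between -1.34 and -0.207 over its 16 alternatives, the latter with at least 10 UMIs of Cst3, and was called in 5 of them. Cells just outside the rule, with 1 of the 7 genes, belong to these other cells and held 837 and 1288 CPM of H2-Aa in control and 3194 and 3504 CPM in cKO. The neutrophil genes S100a8 and Lcn2 were the other 2. S100a8 stood at 139 and 0 CPM in control and 4.76 and 3.51 CPM in cKO dendritic cells, and at 11472 and 62.5 CPM and 11511 and 12479 CPM in the other cells, so the second control library stood apart in the latter. All 4 calls were lost when cells with other myeloid or NK markers were left out. That step left 13 and 18 control and 20 and 15 cKO cells of the other kind and 4568 genes tested. S100a8 is itself among those markers, so cells were left out in part on its own counts and the loss of its call is not informative. The value of Rgs1 lay between -2.41 and -1.35 over its 16 alternatives.

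Other cell types were checked by their markers, summed as CPM over all dendritic cells. B cell markers gave 2070 and 618 CPM in control and 467 and 574 CPM in cKO, with 9 of 12 tested lower in cKO; a single cell of the first control library held 849 of its 1060 UMIs of Ighm. T cell markers gave 44.6 to 108 CPM with Cd3d, Cd3e and Cd3g at 0 by the rule, NK cell markers 105 to 135 CPM with Gzmb at 0, and plasmacytoid markers 406 to 689 CPM. Monocyte markers gave 1906 and 7803 CPM in control and 3110 and 5520 CPM in cKO, and Lyz2 among them stood at 502 and 4989 CPM in control and 1131 and 2750.5 CPM in cKO. Neutrophil markers gave 223 to 833 CPM, plasma cell markers 168 to 301 CPM with Tnfrsf17 at 0, innate lymphoid markers 614 to 840 CPM with Tcrg-C1 at 0, erythroid markers 22.9 to 55.4 CPM with Alas2 and Slc4a1 at 0, and basophil and mast cell markers 9.13 to 29.4 CPM with Fcer1a, Mcpt8, Ms4a2 and Prss34 at 0.

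Sex-linked transcripts differed between the pools. Xist, the transcript of the inactive X chromosome, was detected in 35 of 96 dendritic cells of the first cKO library (457 UMIs), in 1 of 41 of the second (1 UMI) and in 0 of the 83 and 75 control cells. The Y-linked gene Ddx3y was detected in 64 of 83, 41 of 75, 44 of 96 and 31 of 41 cells. The 4 of 6 sex-linked genes tested had a median log2 fold change of -0.32. Their part in the values above was not tested.

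The sorted YFP+ libraries held few such cells. The rule found 9 and 2 cells in the control and 17 and 1 cells in the cKO libraries, and 5, 1, 9 and 1 of these carried a UMI of a B cell gene. They entered no comparison.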

How the data were processed

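Spleen cells were captured with a SeekOne DD 3′ kit, and the authors deposited UMI counts per gene and cell, as raw counts without normalization, for 8 libraries. The submitters' processing notes name GRCm38 and mm10. The sources used here name neither aligner nor annotation. The authors' quality limits on genes and mitochondrial UMIs were applied again, and their later steps (LogNormalize, Harmony and COSG in Seurat, with replicates merged) were not used.

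From the deposited counts, cells were kept above 100 genes and up to 10% mitochondrial UMIs, and the selection rule was applied. Doublets were called with Scrublet in scanpy 1.11.5 at an expected 8% and entered as an alternative. Counts were summed per library and class, genes were kept by edgeR's filterByExpr at its default settings, and genotypes were compared by edgeR 4.0.16 (R 4.3.3) with TMM scaling and the quasi-likelihood test, Benjamini-Hochberg adjusted over all genes. Differences between classes were interaction terms. DESeq2 1.42.0 was an alternative, as were other scalings, filters, gates, a batch term and leaving out each library. Shares were compared by exact permutation tests over libraries (scipy 1.17.1). Scripts were tested on simulated counts.

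The labels' batch number pairs a control with a cKO library. Deviations of same-numbered libraries correlated at 0.21 over all dendritic cells, 0.10 in Xcr1/Clec9a-positive cells and 0.22 in the rest. Each library pooled mice, so p-values measure the spread between pools. Counts in a library of 71894780 to 88513929 UMIs left 41 to 96 dendritic cells.

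The members and lists were chosen with earlier results of these data known. Named genes were, per comparison, up to 10 called genes with the largest fold change in each direction whose cKO libraries both lay above or below the controls, leaving out rule genes, receptor segments and predicted genes. Where fewer than 5 passed, the 5 with the lowest p in each direction were taken. Per list, called members were named, or else the 2 with the highest mean and the 2 with the lowest p, and Eif3e always. Genes named from alternatives were chosen after their values were seen. Some genes that the rule names are not reported here.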

Additional observations from a re-analysis of the deposited data

Results flagged for a closer look

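The genotype effect of 174 genes differed between conventional dendritic cells and B cells by the interaction term. The named ones with a higher effect (difference of log2 fold changes) were Igfbp7 (7.67), Tm4sf1 (7.03), Hspg2 (6.81), Mgll (6.72), Plvap (6.39), Star (6.34), Sparc (5.92), Ly6c1 (5.92), Plpp3 (4.52) and Nid1 (4.47). Those with a lower effect were Slpi (-4.26), Nfil3 (-3.47), Lifr (-2.97), Cd69 (-2.90), Fscn1 (-2.88), Samsn1 (-2.63), Klhdc2 (-2.59), Mir155hg (-2.30) and Klhdc1 (-2.17).

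Against the other Cst3-positive cells the effect of 4 genes differed, Rgs1 (-2.16), S100a8 (-4.56), Lcn2 (-4.56) and H2-Aa (-1.10). In the sorted YFP+ libraries, which no comparison used, the rule found 17 cells in the first cKO and 9 in the first control library, above the limit that a count of 0 allows.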

How the results depend on the processing

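With 41 to 96 cells per library, few calls were stable. The alternatives that leave out cells with endothelial genes, alone or with the other marker cells, were chosen after seeing the data. In what follows, endothelial cells and other myeloid cells are short names for cells with those markers, whose identity was not tested. Cells with other myeloid or NK markers were 48.2% and 36.0% of control and 43.8% and 58.5% of cKO dendritic cells. Where 1 library of a genotype was left, it was assumed to vary like the other group.

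Over all dendritic cells (1 call) there were 94 calls with no filter on low counts, 2 by DESeq2, 0 under a strict B cell gate, with 3 of the 7 genes, with 10 UMIs of Cst3 or without endothelial cells, 9 without other myeloid cells, 5 without both, and 35 to 108 without 1 library. In Xcr1/Clec9a-positive cells (1 call) there were 26 with no filter, 2 by DESeq2, 11 with the replicate block, 0 under the strict gate, 3 genes, Cst3 at 10, without endothelial cells or without both, and 9 to 21 without 1 library. In the rest (0 calls) there were 81 with no filter, 2 at 20 counts, 4 by DESeq2, 1 with the block, 1 under the strict gate, 14 without other myeloid cells and 14 without both, and 21 to 80 without 1 library. Each of the 4 libraries moved each of these counts when left out: cKO 1, cKO 2, control 1 and control 2 gave 108, 35, 81 and 53 over all, 14, 20, 21 and 9 in positive cells and 80, 21, 63 and 44 in the rest.

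For the difference between subsets (0) there were 5 with no filter, 1 with 3 genes, 1 without both, and 2 to 41 without 1 library. For that from B cells (174) there were 33 by DESeq2, 39 under the strict gate, 110 with 3 genes, 67 with Cst3 at 10, 104 without other myeloid cells, 77 without both, and 64 to 214 without 1 library. For that from other Cst3-positive cells (4) there were 91 with no filter, 9 by DESeq2, 0 under the strict gate, 3 genes, without other myeloid cells or without both, and 5 to 24 without 1 library. Without TMM scaling the median of all genes was 0.10 in positive cells and 0.11 for the difference from B cells.

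The share difference of dendritic cells reversed to 0.0265 points when thinned and ran from -0.371 to 0.158 without 1 library (0.158 without cKO 2, 0.0031 without control 1). That of positive cells was -4.16 under the strict gate, -1.51 without both and -4.78 when thinned. That of mature cells ran from -10.2 to -3.72 and was -0.611 when thinned. That of cycling cells ran from -1.62 to 9.22 and was -1.62 without control 2. Paired by batch, the permutation p of the shares was 0.5 or 1.0, and over all dendritic cells the block called Igfbp7 (6.75) in place of Plvap.

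Reversed genes of the difference from B cells were Igfbp7 (-0.64 without endothelial cells, -0.87 without both), Sparc (-0.69), Nid1 (-1.56, -1.54), Star (-0.0029, strict gate) and Mir155hg (0.044 strict gate, 1.81 with 3 genes, 0.57 with Cst3 at 10). Lyz2 ran from -1.37 to 1.94 over all and -1.51 to 2.38 in the rest without 1 library, the higher values without control 2. Apart from removals of cells that carried a gene, the cause was not tested.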
